A study of Homo sapiens with 3 samples.

Results

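The epithelial and mesenchymal state genes described here are 10 genes taken by symbol from the 60609 genes counted in each library. They comprise the cadherins CDH1 and CDH2, the adhesion molecule EPCAM, the keratins KRT8, KRT18 and KRT19, the filament gene VIM, and the transcription factors ZEB1, ZEB2 and SNAI2. The rule used no measured value. All 10 were found in every table. The RNA of NCI-H209, an established line from a human small cell lung cancer, was sequenced in 3 libraries. Library sh490 and library sh1362 each carried a different short hairpin RNA against YES1, a Src-family tyrosine kinase. Library shGFP carried a control hairpin against GFP, a gene that human cells lack. All 3 libraries share the parent line, an inducible lentiviral Tet-pLKO-puro vector and doxycycline at 1 µg/mL, renewed every 2 days. The time from induction to harvest, and whether the cells were pools or clones, are not stated in the labels. With 1 library per hairpin, each single comparison with shGFP has no replicate check. The question here is which epithelial or mesenchymal genes the control cells expressed, and whether those levels differed with each YES1 hairpin.

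Epithelial cells hold each other through E-cadherin, the product of CDH1, and carry a cytoplasmic network of keratins. In the epithelial to mesenchymal transition, factors of the ZEB, SNAIL and TWIST families repress CDH1 and other junction genes, while N-cadherin (CDH2) and vimentin (VIM) are gained. Small cell lung cancer lines of the neuroendocrine kind usually keep epithelial keratins and grow as floating aggregates. The miR-200 family of microRNAs represses ZEB1 and ZEB2, and both factors repress the miR-200 genes in turn.

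The mature miR-200 sequences are shown because ZEB1 and ZEB2 are the family's best-known targets. They come from RefSeq (GRCh38.p14), with the seed, bases 2 to 8, in capitals, and fall into a pair of seed groups.
hsa-miR-200a-3p: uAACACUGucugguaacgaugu
hsa-miR-141-3p: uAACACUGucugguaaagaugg
hsa-miR-200b-3p: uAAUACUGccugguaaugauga
hsa-miR-200c-3p: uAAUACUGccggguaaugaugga
hsa-miR-429: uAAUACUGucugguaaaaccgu
The first seed is complementary to CAGTGTT, and the second to CAGTATT. Only the RNA strand of each gene was searched, and these strings cannot overlap each other.

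Both letter strings were sought in the longest annotated 3′ untranslated region of every protein-coding gene in GENCODE 29 (GRCh38). ZEB1 held 3 copies of CAGTGTT and 6 of CAGTATT in 2549 bases, and ZEB2 held 4 and 5 in 5370 bases. These equal 3.53 sites per kb in ZEB1 and 1.68 in ZEB2, against 0.252 per kb over all regions searched. Of 19121 genes, 18.4% held CAGTGTT, 16% held CAGTATT, 28.3% held either, and 0.581% held 5 or more sites. KRT8 and SNAI2 held 1 CAGTATT each, and the other 6 genes held neither string. Windows of 30 bases around the sites, with the match in capitals, show examples in their surroundings.
ZEB1, bases 369 to 375: ctggcattgttttatcttatCAGTATTatc
ZEB1, bases 1773 to 1779: ttaggattaacttctataaaCAGTGTTggg
ZEB2, bases 392 to 398: gtgcccgcactaccatacatCAGTATTttt
ZEB2, bases 734 to 740: ctgcaagtgccatccttgtaCAGTGTTaag
Positions count from 1 at the first base after the stop codon. A match describes letters in the annotation and is not a measured site, and no microRNA was measured in these libraries. MIR200CHG, the annotated host gene of MIR200C and MIR141, was chosen after its values were seen. It had 51 counts in sh490 and 55 in sh1362, against 21 in shGFP, which is the shallower library. After scaling, the ratio to shGFP was 1.48 with sh490 (95% counting interval 0.875 to 2.59) and 1.72 with sh1362 (1.02 to 2.99).

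Per the labels the RNA is polyadenylated, and the values are read counts per gene over exons. The libraries held 7791747 counts for sh490, 7421552 for sh1362 and 4899006 for shGFP, so shGFP was the shallowest. YES1 had 163 counts in sh490 and 216 in sh1362, against 1465 in shGFP. All 10 neuroendocrine markers were detected in every library, with summed levels of 3173, 4422 and 3378 CPM (counts scaled to a common library total) in sh490, sh1362 and shGFP. Markers of fibroblasts, which also express VIM, summed to 17.71, 15.34 and 19.9 CPM, with 6, 6 and 4 of 10 detected and DCN and FAP at 0 throughout. Endothelial markers summed to 12.27, 5.432 and 21.35 CPM, with 4, 3 and 6 of 8 detected and TEK and EMCN at 0, and leukocyte markers to 2.15, 3.802 and 5.39 CPM, with 3, 5 and 6 of 10 detected and CD68, CD3E and ITGAM among those at 0. The libraries were also unlike in red cell genes, which summed to 18.84 CPM in sh490 and 20.5 in sh1362, against 737.2 in shGFP, with 5, 4 and 6 of 8 detected and AHSP among those at 0 in all. The part of these differences in the results was not tested.

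The shGFP cells had high levels of epithelial structural genes and low levels of VIM, ZEB2 and SNAI2. Levels of different genes are compared as TPM, counts divided by the exon length in the tables and scaled to one total in every library. EPCAM, the epithelial cell adhesion molecule, stood at 1156 TPM in shGFP, percentile 99.7 of 19905 protein-coding genes. KRT18, the type I keratin of simple epithelia, stood at 528.4 TPM, percentile 99.2. KRT8, its type II partner, stood at 146.5 TPM, CDH1 at 111 TPM, and KRT19, another type I keratin, at 90.74 TPM. These 5 genes all lay at or above percentile 90.3. CDH2 was in the middle of the set at 27.18 TPM, percentile 72.1.

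ZEB1, a zinc finger repressor of CDH1, stood at 5.607 TPM in shGFP, percentile 48.4. VIM, the type III filament of mesenchymal cells, stood at 2.267 TPM, percentile 40.4. ZEB2, the paralog of ZEB1, reached 0.06293 TPM from 2 reads. SNAI2, the repressor known as Slug, had no read in shGFP. In all, 8 of the 10 genes were above 1 TPM, a level that 13014 of the protein-coding genes passed.

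**Figure D1:**
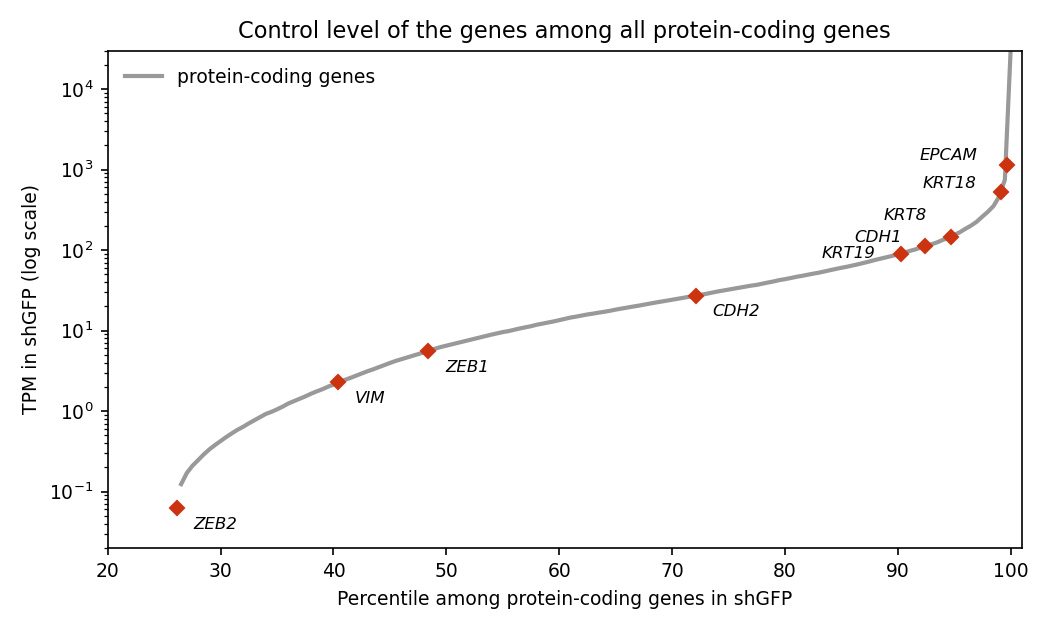
The level of each gene in shGFP (TPM, log scale) is plotted against its percentile among protein-coding genes, the grey line being all such genes. The keratins, EPCAM and CDH1 lie at the right end and VIM, ZEB1 and ZEB2 to the left. SNAI2, with 0 reads, is not drawn.

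The order of the 10 levels was nearly the same in the other libraries, going by exact 95% counting intervals of each TPM, which cover counting error only. EPCAM, KRT18 and then KRT8 led in sh490 and in shGFP, and in shGFP no neighbouring intervals overlapped from EPCAM down to VIM. In sh490 the intervals of CDH1 (141.9 TPM) and KRT19 (136.2 TPM) overlapped, as did those of ZEB1 (2.894 TPM) and VIM (1.423 TPM). In sh1362 CDH1 stood above KRT8, at 238.9 TPM against 206.9 TPM, while in sh490 it stood below KRT8, at 141.9 TPM against 200.3 TPM. ZEB2 and SNAI2 could not be ordered in sh490 or shGFP, nor VIM and SNAI2 in sh1362. KRT8 is the gene whose TPM depends most on length, since its exons in the table span 6881 bases and its principal transcript 2126. With the principal transcript of each gene, KRT8 came to 474.3 TPM in shGFP, KRT18 to 1038 and EPCAM to 1689. On that scale KRT19 (152.5 TPM) stood above CDH1 (138.6 TPM) in shGFP, and KRT8 stood above CDH1 in sh1362, at 669.6 TPM against 298.2 TPM, so both orders given above turn round with the length used.

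**Figure D2:**
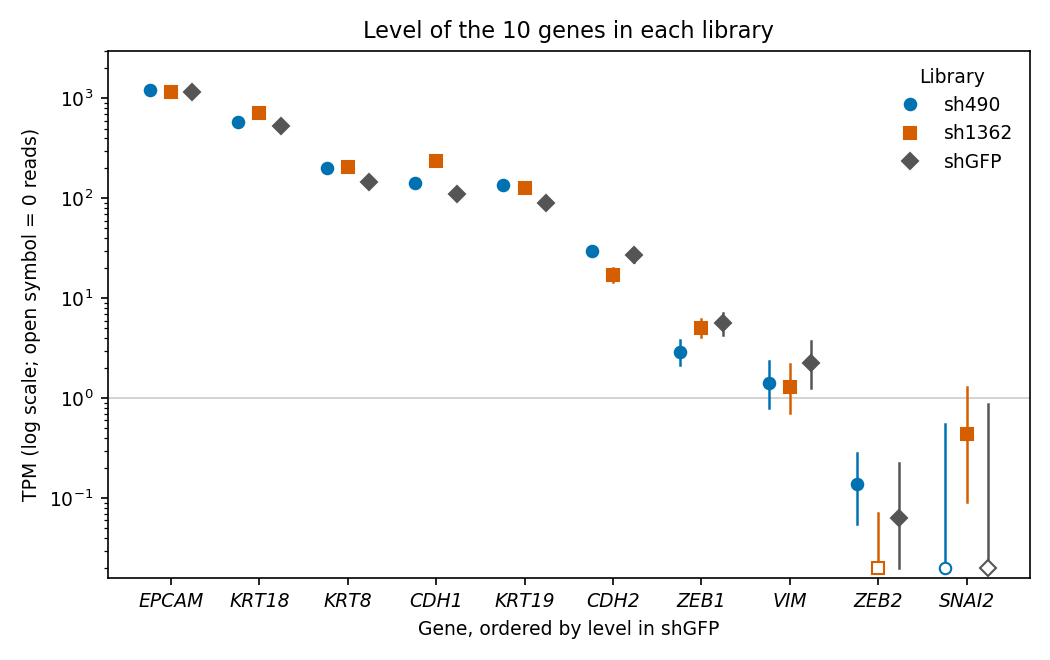
Points give the TPM of each gene (log scale) in sh490, sh1362 and shGFP, with exact 95% counting intervals as vertical lines and open symbols at the bottom edge for 0 reads. The grey line is at 1 TPM. EPCAM is near level across libraries, CDH1 is highest in sh1362, and ZEB2 and SNAI2 rest on 7 reads or fewer.

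None of the 10 genes was called different between the YES1 hairpins and shGFP when both hairpins were taken as 1 group. The edgeR quasi-likelihood test took 8 of the 10, because ZEB2 and SNAI2 had too few reads, and all 8 had an adjusted p of 0.986 or 0.995. Across all 15708 genes tested it called 4, or 0.0255%, namely 0 higher and 4 lower (YES1 and the globin genes HBB, HBA1 and HBA2). At an unadjusted p under 0.05, 357 genes were higher and 327 lower. The test has 1 residual degree of freedom, in which any difference between the hairpins counts as spread. The labels do not say that the libraries came from separate cultures, so these p-values rest on a spread that may be technical. Differences of a single hairpin are therefore described below by size, on the log2 CPM scale with a prior count of 2. A gene was counted where it lay at least 2-fold apart and averaged at least 5 CPM over the libraries, a minimum that 7 of the 10 passed. Such a fold was reached by 2.81% of 11638 genes with sh490 and 9.3% with sh1362. Of the 7, 0 reached it with sh490 and 1, CDH1, with sh1362. Between sh490 and sh1362, 0 of the 7 reached it, against 5.9% of all genes. The median log2 fold of the 7 genes came to 0.11 for sh490 and 0.51 for sh1362, against 0.00 and -0.01 over the 11638 genes. Of these 7, only CDH2 and ZEB1 are tied to the mesenchymal state, since VIM, ZEB2 and SNAI2 averaged under 5 CPM. The comparisons of sh490 and of sh1362 share the shGFP library. In bulk RNA, fewer cells of a kind and less RNA per cell cannot be told apart.

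**Figure D3:**
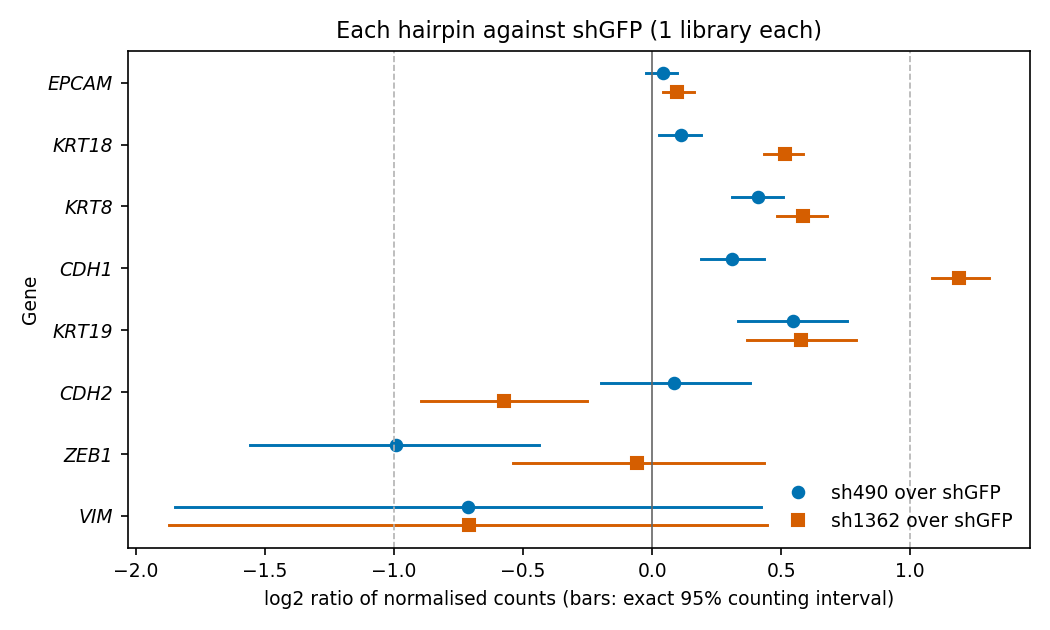
Points give the log2 ratio of normalised counts of each hairpin library to shGFP, with exact 95% counting intervals as bars and dashed lines at 2-fold. CDH1 with sh1362 is past the upper line, ZEB1 with sh490 is at the lower line, and the 3 keratins lie right of 0 with both hairpins.

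CDH1 encodes E-cadherin, the adhesion molecule of epithelial adherens junctions (ENSG00000039068.19, chromosome 16, 68737292 to 68835541, plus strand, GRCh38). It had 1764 counts in sh490 and 3021 in sh1362, against 866 in shGFP. Those counts equal 223.1 CPM in sh490 and 410.2 CPM in sh1362, against 179.5 CPM in shGFP. Both hairpin libraries lay above shGFP, sh1362 far more than sh490. The ratio to shGFP was 1.24 with sh490 (95% counting interval 1.14 to 1.35) and 2.28 with sh1362 (2.12 to 2.47). The sh490 level was 0.544 of the sh1362 level (0.513 to 0.577). Among the 11638 genes, the log2 fold of CDH1 was at percentile 81.1 with sh490 and 98.1 with sh1362. The edgeR quasi-likelihood test of both hairpins gave a log2 fold of 0.82 ± 0.40 (SE) and an adjusted p of 0.986.

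CDH2 encodes N-cadherin, the adhesion molecule of neural and mesenchymal cells (ENSG00000170558.9, chromosome 18, 27950966 to 28177130, minus strand). It had 280 counts in sh490 and 165 in sh1362, against 161 in shGFP, or 35.41, 22.41 and 33.38 CPM in that order. The sh490 and shGFP levels were close and sh1362 was the low library. The ratio to shGFP was 1.06 with sh490 (0.871 to 1.3) and 0.671 with sh1362 (0.537 to 0.839). With both hairpins together edgeR gave a log2 fold of -0.21 ± 0.37 (SE), adjusted p 0.986.

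Because CDH1 and CDH2 were read in the same libraries, their ratio needs no scaling between libraries. Per exon length, CDH1 exceeded CDH2 by 4.78 times in sh490 (4.21 to 5.45) and by 13.9 times in sh1362 (11.9 to 16.4), against 4.08 times in shGFP (3.45 to 4.86). The sh490 and shGFP intervals overlap and the sh1362 interval stands clear of both. Cadherins as a family were led by CDH1, which took 58.1% of the counts of 23 cadherin genes in sh490 and 76% in sh1362, against 50.6% in shGFP. CDH17, the cadherin of liver and intestine, took 13% in sh490 and 3.8% in sh1362, against 15.9% in shGFP. CDH2 took 9.23%, 4.15% and 9.41% in the same libraries.

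EPCAM marks the surface of most simple epithelia (ENSG00000119888.10, chromosome 2, 47345158 to 47387601, plus strand). It had 6259 counts in sh490 and 6088 in sh1362, against 3722 in shGFP, or 791.6, 826.7 and 771.6 CPM. The libraries were close to level. The ratio to shGFP was 1.03 with sh490 (0.985 to 1.07) and 1.07 with sh1362 (1.03 to 1.12), and these intervals end at 1.07 and 1.12. EdgeR gave a log2 fold of 0.07 ± 0.26 (SE), adjusted p 0.995.

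KRT8 and KRT18 form the obligate keratin pair of simple epithelia and lie side by side on chromosome 12, KRT8 at 52897187 to 52949954 on the minus strand (ENSG00000170421.12) and KRT18 at 52948871 to 52952906 on the plus strand (ENSG00000111057.11). KRT8 had 2807 counts in sh490 and 2950 in sh1362, against 1289 in shGFP, or 355, 400.6 and 267.2 CPM. KRT18 had 3655 counts in sh490 and 4512 in sh1362, against 2073 in shGFP, or 462.3, 612.7 and 429.8 CPM. Both genes were lowest in shGFP and highest in sh1362. The KRT8 ratio to shGFP was 1.33 with sh490 (1.24 to 1.42) and 1.5 with sh1362 (1.4 to 1.6). For KRT18 the ratio was 1.08 with sh490 (1.02 to 1.14) and 1.43 with sh1362 (1.35 to 1.5). With both hairpins edgeR gave log2 folds of 0.50 ± 0.27 (SE) for KRT8 and 0.32 ± 0.29 (SE) for KRT18, both with an adjusted p of 0.986. Per length, KRT18 exceeded KRT8 by 2.92 times in sh490 (2.78 to 3.07) and 3.43 times in sh1362 (3.27 to 3.59), against 3.61 times in shGFP (3.36 to 3.87).

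KRT19, a type I keratin of ducts and airways (ENSG00000171345.13, chromosome 17, 41523617 to 41528308, minus strand), had 648 counts in sh490 and 618 in sh1362, against 271 in shGFP. Those counts equal 81.96 CPM in sh490 and 83.92 CPM in sh1362, against 56.18 CPM in shGFP. The hairpin libraries were alike and both stood above shGFP. The ratio to shGFP was 1.46 with sh490 (1.26 to 1.69) and 1.49 with sh1362 (1.29 to 1.73), and edgeR gave a log2 fold of 0.56 ± 0.29 (SE), adjusted p 0.986. Among the 11638 genes, the log2 folds of sh490 and sh1362 lay at percentiles 86.6 and 88.5 for KRT8, 62.3 and 85.7 for KRT18, and 91.7 and 88.2 for KRT19.

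The keratin counts rest on reads that align to 1 place only. Processed copies of these genes are scattered over the genome, and 51 KRT8, 68 KRT18 and 5 KRT19 copies are listed in the tables. KRT8 copies held 123 reads in sh490 and 138 in sh1362, against 59 in shGFP, which is 4.38%, 4.68% and 4.58% of the KRT8 counts. KRT18 copies held 0.52%, 0.687% and 0.386% of the KRT18 counts, and KRT19 copies held 0 reads. The most read copy was KRT8P36 on chromosome 3, 93.5% identical to the KRT8 transcript over 1435 aligned bases. Of all 50-base words in the principal transcript, 36.9% for KRT8, 47.6% for KRT18 and 38.2% for VIM also occur in another annotated gene. The share was 2.4% for CDH1, 2.57% for EPCAM, 1.79% for KRT19 and 0% for ZEB1. KRT8 and KRT18 share exon positions, 7.63% of the KRT8 and 17.1% of the KRT18 exon bases. Of the 720 shared words of KRT18, 326 occur in KRT8 itself, so its word and exon shares may cover the same bases. The levels of KRT8 and KRT18 are therefore uncertain, since such reads were left out where they aligned to several places or overlapped both genes.

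VIM (ENSG00000026025.16, chromosome 10, 17228241 to 17237593, plus strand) had 15 counts in sh490 and 14 in sh1362, against 15 in shGFP, or 1.897, 1.901 and 3.11 CPM. The level was low in all 3 libraries but above the detection limit, which a count of 0 would place at 0.379, 0.407 and 0.622 CPM. The ratio to shGFP was 0.61 with sh490 (0.278 to 1.34) and 0.611 with sh1362 (0.273 to 1.36), so no difference was detectable at this depth. EdgeR gave a log2 fold of -0.71 ± 0.78 (SE), adjusted p 0.986. Another gene covers 24.3% of the VIM exon bases, mainly the antisense gene VIM-AS1, and without strand reads there were left out of both counts, in every library. VIM-AS1 had 15 counts in sh490 and 0 in sh1362, against 0 in shGFP. Per length, KRT18 exceeded VIM by 411 times in sh490 (249 to 735) and 544 times in sh1362 (324 to 995), against 233 times in shGFP (141 to 417). Reads at shared positions were left out for VIM and for KRT18, so the VIM level and these ratios are uncertain.

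ZEB1 (ENSG00000148516.21, chromosome 10, 31318495 to 31529814, plus strand) had 51 counts in sh490 and 91 in sh1362, against 62 in shGFP, or 6.45, 12.36 and 12.85 CPM. The sh490 library was the low one, and sh1362 and shGFP were alike. The ratio to shGFP was 0.502 with sh490 (0.34 to 0.739) and 0.961 with sh1362 (0.689 to 1.35). Between the hairpins, sh490 stood at 0.522 of sh1362 (0.363 to 0.743). The log2 fold of -0.96 with sh490 was at percentile 1.56 of the 11638 genes and that of -0.06 with sh1362 at percentile 46. With both hairpins edgeR gave -0.45 ± 0.51 (SE), adjusted p 0.986. ZEB1-AS1, which overlaps 4.58% of the ZEB1 exon bases, had 4.932 CPM in sh490 and 5.975 CPM in sh1362, against 7.049 CPM in shGFP, log2 folds of -0.49 and -0.23. Per length, CDH1 exceeded ZEB1, its repressor, by 49 times in sh490 (37.1 to 66.1) and 47.1 times in sh1362 (38.2 to 58.6), against 19.8 times in shGFP (15.3 to 26). The ratio was above shGFP in both, with CDH1 the higher term in sh1362 and ZEB1 the lower term in sh490.

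ZEB2 (ENSG00000169554.21, chromosome 2, 144364364 to 144521057, minus strand) had 7 counts in sh490 and 0 in sh1362, against 2 in shGFP. SNAI2 (ENSG00000019549.13, chromosome 8, 48917598 to 48921740, minus strand) had 0 counts in sh490 and 3 in sh1362, against 0 in shGFP. Neither gene had a read in every library, so their folds are not described here. The log2 folds given for them in the closing section rest on 7 reads or fewer and moved with the prior count in sh1362. The 9 miR-200 letter matches thus lie, for ZEB1, in a gene read in all 3 libraries, and for ZEB2, in one at the edge of detection. Reads were counted per gene, so which untranslated region the cells used was not measured.

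The wider epithelial program was read at high level in the control, and no gene of it passed the test. Of 23 junction and polarity genes, 23 were tested, 0 were higher and 0 lower by the edgeR test, and 20 averaged at least 5 CPM. The median of their log2 folds was 0.09 for sh490 and -0.13 for sh1362, and 0 of 20 with sh490 and 1 with sh1362, CDH3 (also listed with the cadherins), were 2-fold apart. DSP, the desmosomal plaque protein, was the highest in shGFP at 316.5 TPM, followed by the tight junction gene CLDN7 at 266.5 TPM and alpha-catenin (CTNNA1) at 225 TPM. LLGL2, a basolateral polarity gene, had 210 counts in sh490 and 200 in sh1362, against 69 in shGFP, log2 folds of 0.88 and 0.91. PKP3, plakophilin of desmosomes, had 253 and 230 counts in sh490 and sh1362, against 92 in shGFP, log2 folds of 0.74 and 0.70. JUP (plakoglobin) had log2 folds of 0.58 in sh490 and 0.33 in sh1362, and the tight junction gene MARVELD3 had -0.51 and -0.41.

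Of 18 epithelial factors and surface proteins, 18 were tested and 0 passed in either direction by edgeR, and 15 averaged at least 5 CPM. The median of their log2 folds was 0.22 for sh490 and -0.03 for sh1362. ESRP1, the epithelial splicing regulator, stood at 315.9 TPM in shGFP and had log2 folds of 0.14 in sh490 and -0.03 in sh1362. ST14 (matriptase) had 0.35 with each hairpin, RAB25 0.22 and 0.29, SPINT1 -0.18 and -0.27, and CDS1 -0.60 and -0.18. MAL2, an apical transport protein, had 2708 counts in sh490 and 575 in sh1362, against 1371 in shGFP, and was the single gene of this list 2-fold lower with sh1362 (log2 -1.86). OVOL2, a repressor of ZEB1, was named after its values were seen as the gene 2-fold higher with sh490. It had 132 counts in sh490 and 37 in sh1362, against 38 in shGFP, log2 folds of 1.06 and -0.62.

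Among the intermediate filaments, a few keratins held nearly all keratin reads. Of 55 keratin genes, 40 had 0 reads in every library, including the stratified epithelial keratins KRT5, KRT6A, KRT6B, KRT13, KRT14, KRT16 and KRT17. The 4 most read keratins of each library took 90.1% of keratin counts in sh490 and 93.1% in sh1362, against 89.1% in shGFP. KRT18, KRT7 and KRT8 were among them throughout, joined by KRT80 in sh490 and shGFP and by KRT19 in sh1362. KRT7, the type II keratin of glands and airways, had 3814 counts in sh490 and 4297 in sh1362, against 1881 in shGFP. Its log2 folds of 0.31 and 0.58 were close to those of KRT8, 0.41 and 0.58, and per length KRT8 stood at 0.428 of KRT7 in sh490 and 0.399 in sh1362, against 0.398 in shGFP. KRT80 ran the other way, with 842 counts in sh490 and 344 in sh1362, against 662 in shGFP, log2 folds of -0.37 and -1.55. KRT10, a keratin of stratified epithelia, was also read, with 172 counts in sh490 and 206 in sh1362, against 122 in shGFP, log2 folds of -0.21 and 0.14. Of 15 other keratins listed, 4 were tested and 0 passed by edgeR.

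Of 12 other filament genes, 10 were tested and 0 passed by edgeR, and the median log2 fold of the 8 that averaged at least 5 CPM was 0.02 in sh490 and 0.37 in sh1362. In the sh1362 library the neuronal filament genes INA (alpha-internexin) and NEFM were the high ones. INA had 427 counts in sh490 and 1141 in sh1362, against 239 in shGFP, log2 folds of 0.12 and 1.64. NEFM had 204 and 607 counts in sh490 and sh1362, against 123 in shGFP, log2 folds of 0.02 and 1.68. NES (nestin), a filament of neural progenitors, was low there, with 392 counts in sh490 and 145 in sh1362, against 385 in shGFP. Its ratio to shGFP was 0.621 with sh490 (0.538 to 0.717) and 0.247 with sh1362 (0.202 to 0.299). In the same library the neuroendocrine markers had a median log2 fold of 0.43, against -0.14 in sh490, with 10 of 10 tested and 0 past the edgeR test. The lamin genes LMNB1 and LMNB2 stayed within 0.37 on the log2 scale with either hairpin.

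**Figure D4:**
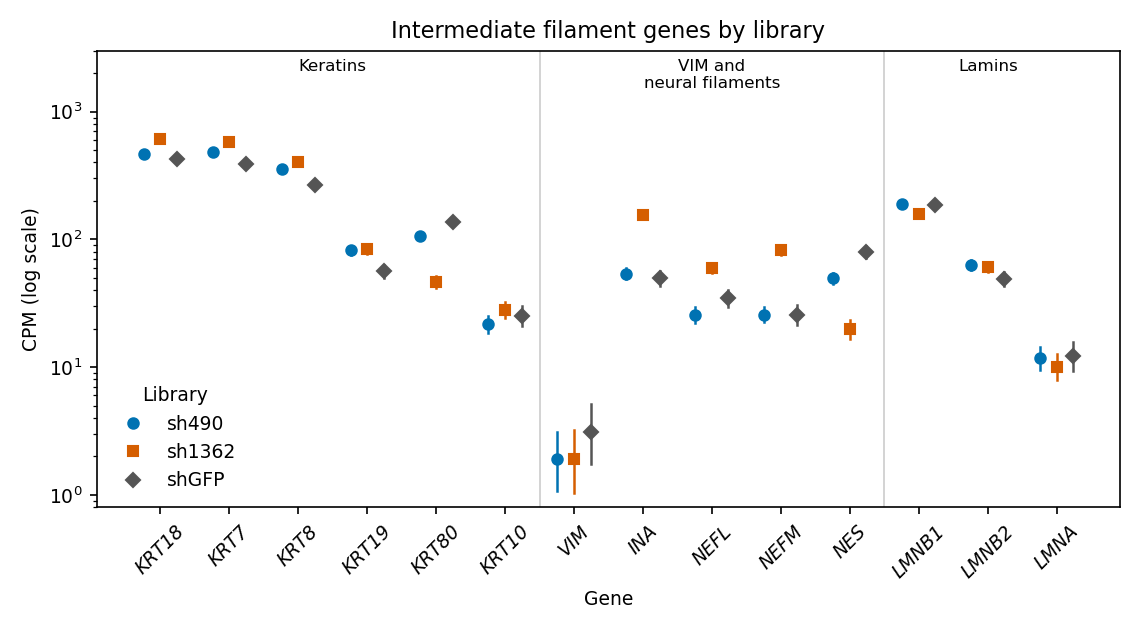
Points give CPM (log scale) of intermediate filament genes in sh490, sh1362 and shGFP, with exact 95% counting intervals as lines. KRT18, KRT7 and KRT8 stand highest, VIM is the lowest gene at 1.897 to 3.11 CPM, and INA and NEFM are highest and NES and KRT80 lowest in sh1362.

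Mesenchymal matrix, adhesion and cytoskeleton genes ranged from 0 reads to 58.32 TPM in shGFP. Of 27 listed, 23 had a read in at least 1 library, 15 were tested, 0 passed by edgeR, and 10 averaged at least 5 CPM, with median log2 folds of -0.18 in sh490 and -0.02 in sh1362. The cytoskeletal genes CALD1 (caldesmon) at 58.32 TPM and TPM1 (tropomyosin) at 25.12 TPM were the highest in shGFP. AXL, COL5A1, POSTN and MMP2 had 0 reads in all libraries. ITGA5, the fibronectin receptor subunit, had 166 counts in sh490 and 127 in sh1362, against 166 in shGFP, log2 folds of -0.71 and -0.98. TPM2 had log2 folds of -0.31 and -1.12, TAGLN 0.24 and 0.25, and NT5E -0.22 and -0.39. COL5A2, named after its values were seen, was 2-fold higher with sh1362 (log2 1.01) and had a log2 fold of -0.43 with sh490.

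Of 12 other transition factors, 6 were tested and 0 passed by edgeR, and none of the 5 that averaged at least 5 CPM was 2-fold apart with either hairpin. TWIST1, a basic helix-loop-helix factor, was the highest of them in shGFP at 33.29 TPM, above ZEB1 at 5.607 TPM. It had 96 counts in sh490 and 82 in sh1362, against 85 in shGFP, log2 folds of -0.53 and -0.65. FOXC1 had log2 folds of 0.43 and 0.42, and TCF3 had 0.20 and 0.13. SNAI1, named after its values were seen, averaged under 5 CPM, with 39 counts in sh490 and 30 in sh1362, against 10 in shGFP. Its ratio to shGFP was 2.38 with sh490 (1.17 to 5.34) and 1.96 with sh1362 (0.935 to 4.51), and edgeR gave an adjusted p of 0.986. TWIST2, FOXC2 and GSC had 0 reads throughout.

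TGF-beta signalling, the best-known inducer of the transition, had 12 of 12 genes tested and 0 past the edgeR test. The 10 that averaged at least 5 CPM had median log2 folds of -0.23 in sh490 and -0.26 in sh1362. SMAD3, a receptor-activated SMAD, had 191 counts in sh490 and 72 in sh1362, against 191 in shGFP, log2 folds of -0.71 and -1.99. The repressor SKIL had -0.30 and -0.75, the inhibitory SMAD7 -0.38 and -0.28, the receptor TGFBR2 -0.94 and -0.24, and the shared SMAD4 -0.15 with each. The ligand TGFB2 had a ratio to shGFP of 0.499 with sh490 (0.426 to 0.583) and 1.2 with sh1362 (1.05 to 1.36). TGFB1, named after its values were seen, had 115 counts in sh490 and 34 in sh1362, against 33 in shGFP, log2 folds of 1.06 and -0.54.

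Of 17 other cadherins listed, 11 were tested and 0 passed by edgeR, and the 5 that averaged at least 5 CPM had median log2 folds of -0.32 in sh490 and -0.13 in sh1362. CDH17 had 396 counts in sh490 and 151 in sh1362, against 272 in shGFP, log2 folds of -0.17 and -1.45. CDH3 (P-cadherin) had -0.32 and -1.06, CDH18 -0.56 and -0.13, and CDH7 -0.52 and 0.00. CDH12, named after its values were seen, had -0.07 and 1.01. The sh1362 library was thus high in CDH1 and CDH12 and low in CDH3 and CDH17, each at least 2-fold from shGFP, a fold that 9.3% of all genes reached there.

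**Figure D5:**
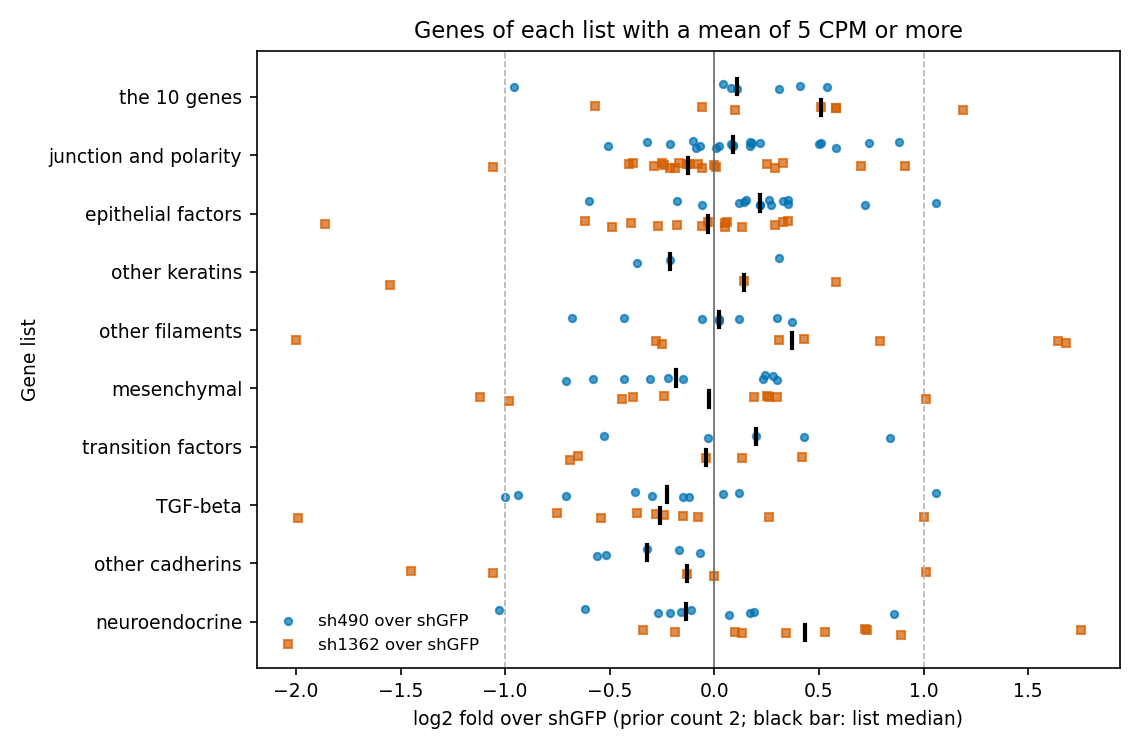
Each point is a gene that averaged at least 5 CPM, placed by its log2 fold over shGFP with sh490 (circles) or sh1362 (squares), and black bars are list medians. Medians lie between -0.32 and 0.51, and points past the dashed 2-fold lines are mostly from sh1362.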

How the data were processed

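Counts are raw reads per gene, deposited by the authors as 1 table per library. The submitters' processing notes name FastQC 0.11.8, STAR 2.6.1c and the GRCh38 build. Exons of GENCODE 32 were counted with featureCounts 1.6.0, per the file headers, with no option for strand, pairs or multi-mapping reads. Reads of both strands were therefore added, and multi-mapping reads and reads overlapping several genes were left out. Of 60609 genes, 60590 were matched to a symbol.

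The rest was computed here. EdgeR 4.0.16 (R 4.3.3) used TMM scaling, filterByExpr and the robust quasi-likelihood test, two-sided, with Benjamini-Hochberg adjustment over 15708 genes and an adjusted p under 0.05. The single shGFP library is taken to vary like the hairpin libraries. CPM used TMM sizes, and TPM the exon lengths in the tables. Intervals are exact 95% Poisson or conditional binomial intervals (scipy 1.17.1). They cover counting error only. They may be too narrow even for that, because without molecular identifiers reads cannot be taken as independent. The limit for 0 reads is 3 counts. DESeq2 1.42.0 and limma 3.58.1 were alternatives.

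From each list up to 4 genes were named, those on the same side of shGFP with both hairpins by their smaller fold, plus the 3 highest in shGFP. Genes and lists were chosen with earlier results of these data known. Some genes that the naming rule or the lists take, and some sequence, are not reported here.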

Additional observations from a re-analysis of the deposited data

How the results depend on the processing

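The count of genes called with both hairpins was 4, and it was 4 with RLE sizes, with total counts and in genes of 5 CPM or more, 5 with DESeq2, 2 with limma-voom and 58 with no filter on low counts. None of the 10 genes was called by DESeq2, by limma-voom or without the filter. Without a minimum of 5 CPM, 3 of the 10 genes were 2-fold apart between sh1362 and shGFP (main value 1) and 2 between sh490 and sh1362 (main value 0), the added genes being ZEB2 and SNAI2 with 7 reads or fewer. Of 80 log2 folds of the 10 genes recomputed with other scaling, library totals or prior count, 0 changed sign and 2 moved by over 1.5-fold, those of sh1362 at a prior count of 0.5. They were ZEB2 (-2.71, against -1.26) and SNAI2 (2.69, against 1.24). Under all other settings run, the counts of genes 2-fold apart were those reported, and 7 or 8 genes were above the TPM minimum, 7 at 5 TPM. The setting with principal transcript lengths was chosen after seeing the data. Total-count scaling moved the all-gene median log2 fold to 0.04 with sh490. Leaving out a hairpin leaves no residual degree of freedom, so no call count exists, and the log2 ratio of the remaining hairpin was 0.31 to 1.19 for CDH1, -0.99 to -0.06 for ZEB1 and -0.58 to 0.09 for CDH2, which changed sign without sh1362 (-0.21 with both). No paired analysis was possible because there is 1 shGFP library. Depth limits VIM, ZEB2 and SNAI2, and positions shared with other genes also limit VIM.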
